A study of Homo sapiens with 5 samples.

Results

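The 48 genes described here carry out mitosis: they encode the cyclin B kinase and its activators, the mitotic kinases, the spindle checkpoint, the kinetochore, the anaphase-promoting complex, spindle motors, the cytokinesis machinery and the proteins that compact chromosomes. They were chosen by name and found through the RefSeq identifier of each table entry. Of the 48, 44 had an entry of their own among 20220 RefSeq entries, and all 44 were measured in HEK 293T, an established human embryonic kidney line in which SV40 large T antigen, a viral protein that binds p53 and RB, is expressed. Treated cells (2 libraries) received 1 µM 5-aza-CdR (5-aza-2'-deoxycytidine), a cytidine analogue that traps DNA methyltransferases, for 3 days with daily medium change. Recovery cells (1 library) came from the same exposure and were then kept 30 days without drug. Control cells (2 libraries) received no drug, and the labels do not say whether they were also kept for the longer period. RNA was depleted of ribosomal RNA and made into directional libraries.

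Entry into mitosis is driven by CDK1 bound to a B-type cyclin. The checkpoint then holds separation back until kinetochores are attached, after which the anaphase-promoting complex marks securin and cyclin B for destruction. Most of these genes are transcribed late in the cell cycle, so their RNA level in a growing culture depends on how many cells are in G2 and mitosis. In bulk RNA, fewer such cells and less RNA per cell cannot be told apart.

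The authors deposited 1 FPKM value per gene and group (fragments relative to transcript length and library size), with the replicates already combined. No spread between libraries can therefore be given beside any value, and the one test available for a gene is the q-value that the authors computed against control. The commonest ratio between group values, taken as that of entries with equal fragment numbers, gave a relative depth of 1.32 for treated and 0.652 for recovery, with control set to 1. Among genes reported in this line, VIM was at 181, 246 and 316 FPKM and NEFL at 22.2, 30.6 and 28.9 FPKM in treated, recovery and control cells, while PAX2 was at 0.146, 0 and 0 FPKM and IRS4 at 2.13, 28.0 and 0 FPKM. The epithelial keratin KRT18 was at 418, 214 and 231 FPKM. Other epithelial genes were low, EPCAM at 1.75, 0.561 and 1.71 FPKM, CDH1 at 1.09, 0 and 0 FPKM and KRT5 at 0.533, 0 and 0 FPKM. The blood genes HBB and CD3E and the fibroblast gene DCN were at 0 in all groups. The blood genes PTPRC and LYZ were at 0.413 and 0.107 FPKM in treated cells and at 0 in recovery and control. Of the fibroblast genes, LUM was at 0.732, 1.48 and 2.42 FPKM, COL1A1 at 1.71, 1.19 and 1.39 FPKM and COL1A2 at 0.242, 0.272 and 0 FPKM. The fibroblast gene COL3A1 was at 2.36, 7.78 and 4.10 FPKM. The part of other cells in the results below was not tested.

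Promoters of many mitotic genes carry a cell cycle genes homology region (CHR), an element bound by the DREAM repressor and by the B-MYB and FOXM1 activators, often with CCAAT boxes bound by NF-Y. A RefSeq window (GRCh38.p14) from 250 bases before to 50 bases after an annotated start was found for 41 of the 48 genes. For a gene with several starts, a match in any of its windows was counted. The letters TTTGAA or TTTAAA, on either strand, were in the window of 37 of the 41 (90.2%), against 24.7% of 15843 protein-coding genes and 21.1% of the 6057 of them above 5 FPKM in all groups. The 4 without it were AURKB, BUB1, CCNA2 and CDC26. In 34 of the 41 a match was centred between 60 bases before and 50 bases after a start (82.9%, against 8.60% of all protein-coding genes). CCAAT on either strand was in 31 of the 41 (75.6%, against 42.1% of all). An E2F-type motif (TTTCCCGC, TTTCGCGC, TTTGCCGC or TTTGGCGC, on either strand) was in 3 of the 41 (7.32%, against 5.40% of all). CDC26, a subunit of the anaphase-promoting complex, was the 1 gene of the 41 with neither CHR letters nor CCAAT, as were 45.6% of all protein-coding genes. A match is a description of these letters and does not show that a factor binds.

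**Figure D1:**
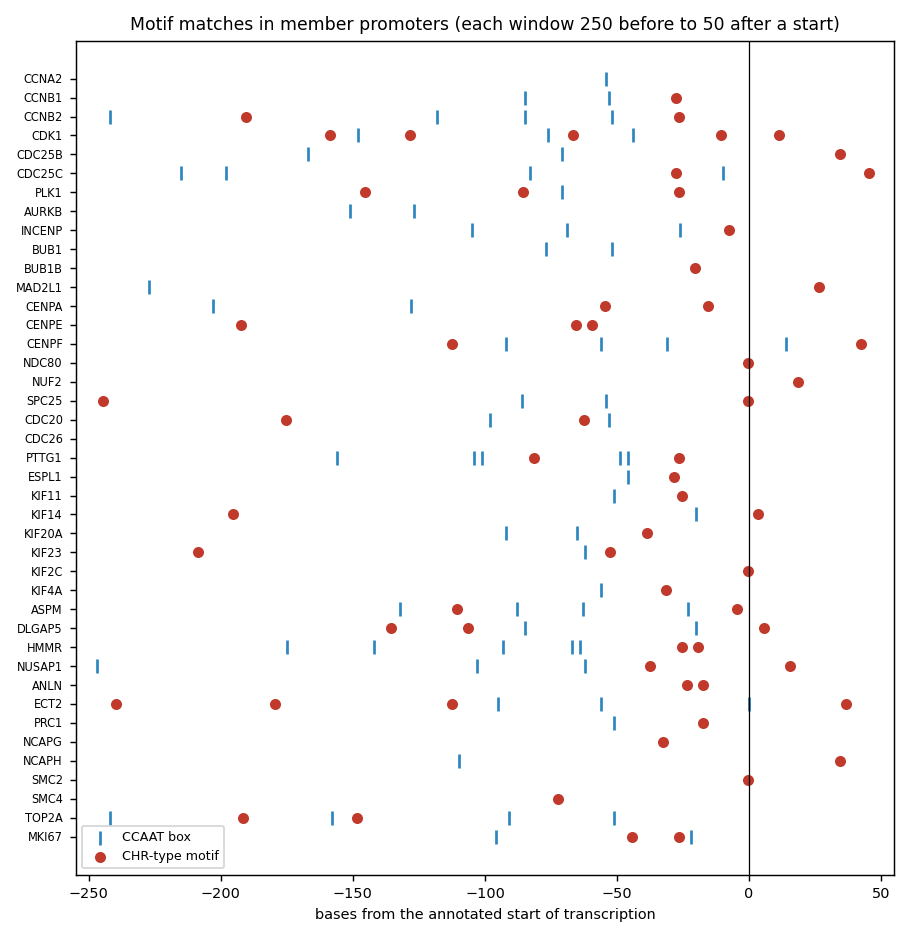
Positions of CHR-type letters (TTTGAA or TTTAAA, red circles) and CCAAT boxes (blue bars) on either strand, in bases from the annotated start, for the 41 genes with a RefSeq promoter window; genes with several starts show the matches of all their windows. Red circles gather near the start in 34 genes, and the CDC26 row is empty.

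The 250 bases before the start are printed for 5 genes that the results turn on: CDC26, the 1 gene the authors called; MKI67 and CENPA, with the highest and lowest treated values relative to control among genes above 0; CENPE, with the lowest recovery value relative to control; and CCNB1, cyclin B1. Each reads 5′ to 3′ in the direction of transcription, with CHR letters and CCAAT boxes of either strand in capitals. They lie in GRCh38.p14 at chr9:113275573-113275822 (minus strand, CDC26), chr10:128126424-128126673 (minus strand, MKI67), chr2:26785806-26786055 (plus strand, CENPA), chr4:103198344-103198593 (minus strand, CENPE) and chr5:69166900-69167149 (plus strand, CCNB1). In MKI67 the second CHR match and a CCAAT box overlap and form 1 run of capitals, and in CENPE 2 CHR matches stand side by side.
CDC26: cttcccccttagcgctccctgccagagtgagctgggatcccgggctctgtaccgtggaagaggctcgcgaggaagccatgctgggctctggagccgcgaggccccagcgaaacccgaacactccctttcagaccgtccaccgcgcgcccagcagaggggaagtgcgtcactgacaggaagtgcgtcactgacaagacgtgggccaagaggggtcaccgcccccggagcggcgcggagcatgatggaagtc
MKI67: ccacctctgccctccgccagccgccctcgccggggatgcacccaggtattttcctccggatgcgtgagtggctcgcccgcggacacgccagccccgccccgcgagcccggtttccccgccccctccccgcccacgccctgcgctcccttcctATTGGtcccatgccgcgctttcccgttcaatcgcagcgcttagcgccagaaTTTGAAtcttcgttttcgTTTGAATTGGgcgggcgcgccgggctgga
CENPA: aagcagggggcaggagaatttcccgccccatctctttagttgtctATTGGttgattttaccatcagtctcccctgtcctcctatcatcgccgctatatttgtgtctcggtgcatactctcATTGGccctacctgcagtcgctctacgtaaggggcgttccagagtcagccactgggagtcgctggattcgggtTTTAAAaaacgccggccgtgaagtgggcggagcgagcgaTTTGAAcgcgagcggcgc
CENPE: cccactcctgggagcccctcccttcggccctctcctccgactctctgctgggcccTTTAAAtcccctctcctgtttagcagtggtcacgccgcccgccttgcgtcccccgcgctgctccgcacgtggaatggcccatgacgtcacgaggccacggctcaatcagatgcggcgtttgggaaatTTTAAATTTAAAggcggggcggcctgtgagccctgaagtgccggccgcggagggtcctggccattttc
CCNB1: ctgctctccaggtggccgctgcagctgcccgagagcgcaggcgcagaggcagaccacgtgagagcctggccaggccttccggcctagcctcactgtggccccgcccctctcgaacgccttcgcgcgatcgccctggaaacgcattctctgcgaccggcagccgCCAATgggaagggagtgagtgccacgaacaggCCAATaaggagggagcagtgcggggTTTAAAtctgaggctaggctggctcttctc
CDC26 shows no capitals but has 21 CpG dinucleotides, the site of DNA methylation, against 30 in MKI67, 19 in CENPA, 20 in CENPE and 19 in CCNB1. Over the full windows the 41 genes had a median of 25 CpG (12 to 53), close to the median of 24 over all protein-coding genes. In both sets a gene with several starts was counted by its window with the most CpG.

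Mitotic genes were abundant in all groups. Their median was 50.7 FPKM in treated, 39 FPKM in recovery and 51.8 FPKM in control cells, above 93.1%, 90.7% and 93.2% of all entries. Of all 20220 entries, 5376 were listed at 0 in treated, 6547 in recovery and 7562 in control cells. The median over the 7392 entries above 5 FPKM in all groups was 19.8, 20 and 20.9 FPKM. TOP2A, the topoisomerase that untangles sister chromatids, was at 181, 159 and 216 FPKM and securin PTTG1 at 177, 147 and 202 FPKM in treated, recovery and control cells. The lowest levels were those of CDC26 (9.63, 10.2 and 0 FPKM), KIF14, a cytokinesis kinesin (9.90, 6.74 and 7.82 FPKM), and SPC25, a kinetochore protein (14.3, 10.7 and 7.60 FPKM). BUB3, a checkpoint protein, was the highest member in recovery at 167 FPKM. CDC26 was the 1 member listed at 0 in any group.

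While the drug was present, the median of the 44 genes stayed near that in control cells. In the authors' deposited table, at q under 0.05, 1 of 44 genes was higher in treated than in control cells (CDC26, q = 0.0147), 0 were lower and 43 did not pass; over all 20220 entries 0.603% were higher and 0.153% lower, and over those with q under 1 1.08% were higher and 0.275% lower. The table gives q and not p, so no count at an unadjusted p can be made. The median difference of log2(FPKM + 1) was -0.03 over the 44 genes, against 0.01 over the 12712 entries with a mean of 0.5 FPKM or more and -0.05 over the 7392 entries above 5 FPKM in all groups. Of the 44, 20 were higher and 24 lower than control, and under either other scaling 23 were higher and 21 lower. Among the 43 genes above 5 FPKM in all groups, 19 were higher (44.2%, against 46.1% of all such entries) and 24 lower (55.8%, against 53.9%). Of these 43, 5 were at least 1.5-fold higher (11.6%, against 13.1% of all such entries) and 2 at least 1.5-fold lower (4.65%, against 17.1%).

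After 30 days without drug, most mitotic genes lay below control, CENPE and TTK by the largest ratios, 2.13-fold and 2.04-fold. In the authors' deposited table CDC26 was again the 1 gene called higher in recovery than in control cells (q = 0.0147), 0 were lower and 43 did not pass, where over all entries 0.495% were higher and 0.247% lower, and over those with q under 1 0.895% were higher and 0.447% lower. The median difference of log2(FPKM + 1) was -0.36, against 0.00 over entries with a mean of 0.5 FPKM or more and -0.06 over entries above 5 FPKM. Of the 44 genes, 36 were lower and 8 higher in recovery than in control (34 and 10 under either other scaling). Of the 43 above 5 FPKM, 36 were lower (83.7%, against 54.8% of all such entries), 7 were higher (16.3%, against 45.2%), 10 were at least 1.5-fold lower (23.3%, against 13% of all) and 0 were at least 1.5-fold higher (against 11.6% of all). Set against treated cells, for which the authors give no q-value, 33 of the 43 were lower in recovery (76.7%, against 49.4% of all) and 10 higher (23.3%, against 50.6%). At least 1.5-fold lower were 10 (23.3%, against 9.92% of all), and 0 were at least 1.5-fold higher (against 11.7%). The recovery values come from 1 library, and both comparisons with control use the same control values.

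**Figure D2:**
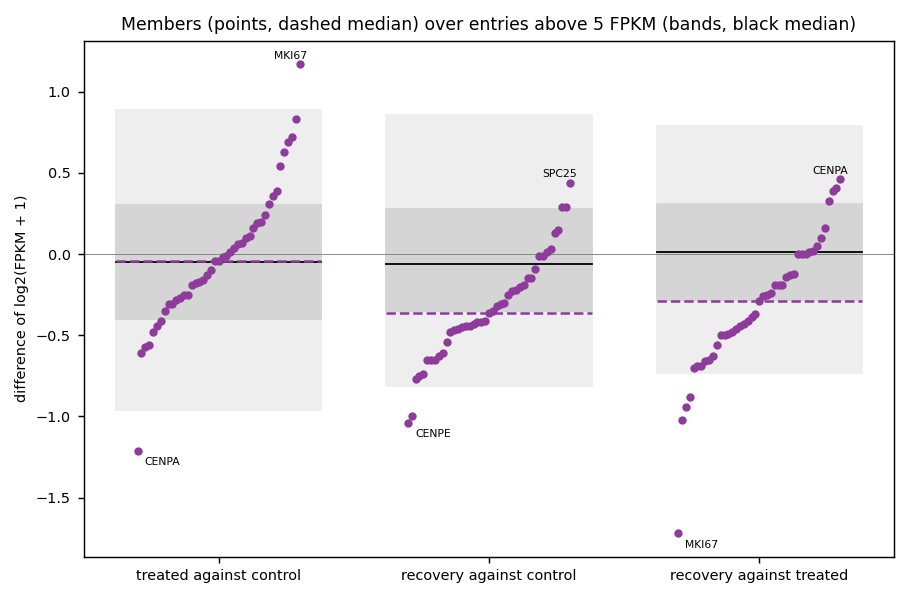
Difference of log2(FPKM + 1) for the 43 genes above 5 FPKM in all groups (points, ordered by value; dashed line, their median) in 3 comparisons. The grey bands hold the central 50% and 90% of the 7392 entries above 5 FPKM, and the black line is their median; the members' median lies at -0.04 in treated against control, at -0.36 in recovery against control and at -0.29 in recovery against treated.

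Mitotic entry genes did not move as a block. Cyclin B1 (CCNB1), the activating partner of CDK1, was at 129 FPKM in treated, 109 FPKM in recovery and 88.5 FPKM in control cells. Cyclin B2 (CCNB2) was at 89.9, 66.1 and 112 FPKM, and CDK1 itself at 115, 123 and 171 FPKM. CCNB1 was thus above control in both other groups (1.46-fold in treated, 1.23-fold in recovery), while CCNB2 and CDK1 were below it (1.24-fold and 1.49-fold lower in treated, 1.69-fold and 1.39-fold lower in recovery). CDC25B, a phosphatase that activates CDK1, was at 35.4, 21.5 and 34.4 FPKM. None of these passed, with the lowest q in the authors' deposited table at 0.931 for treated and 0.881 for recovery.

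Among the mitotic kinases, the treated value was the highest of the 3 for PLK1, which drives centrosome maturation and mitotic exit (43.1, 21.9 and 26.3 FPKM in treated, recovery and control), for AURKA, the spindle pole kinase (77.9, 60 and 60.4 FPKM), and for its activator TPX2 (99.8, 62.7 and 86.6 FPKM). The chromosomal passenger complex, which corrects wrong attachments, was split. Its scaffold INCENP was at 49.0, 29.7 and 29.4 FPKM, 1.67-fold higher in treated than in control cells. Its kinase AURKB was at 80.9, 81.0 and 114 FPKM and survivin (BIRC5) at 80.9, 83.7 and 98.4 FPKM, both below control in each comparison. In the authors' deposited table the lowest q of these 6 genes was 0.877 in treated (INCENP) and 0.939 in recovery. CDCA8, a passenger complex gene of the wider lists below, was at 28.4, 24.3 and 18.1 FPKM. It was above control in both comparisons and was not called.

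All 4 measured checkpoint genes were lower in recovery than in control, and 3 of 4 were lower in treated cells. TTK, the kinase that starts checkpoint signalling, was at 52.4 FPKM in treated, 28.1 FPKM in recovery and 57.2 FPKM in control cells, so that recovery stood 2.04-fold below control (q = 0.553 in the authors' deposited table). BUB1, a checkpoint kinase at the kinetochore, was at 44.5, 28.1 and 37.6 FPKM. BUB3, its partner, was at 127, 167 and 195 FPKM, and MAD2L1, which holds the anaphase activator CDC20 inactive, at 93.8, 95.1 and 127 FPKM. TTK and BUB1 had their lowest level in recovery, whereas BUB3 and MAD2L1 had it in treated cells.

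At centromere and kinetochore, the genes that stood farthest below control differed between the comparisons. CENPA, the histone H3 variant that marks the centromere, was at 15.6 FPKM in treated, 22 FPKM in recovery and 37.4 FPKM in control cells, 2.39-fold lower in treated cells (q = 0.735 in the authors' deposited table) and 1.70-fold lower in recovery. CENPE, the kinesin that carries chromosomes to the spindle equator, was at 28.7, 13.7 and 29.2 FPKM. Its recovery level was 2.13-fold below control, the lowest ratio of any member, with q = 0.378 in the authors' deposited table. CENPF, a large kinetochore protein, was at 61.5, 43.9 and 69.4 FPKM. The 3 subunits of the microtubule-binding NDC80 complex that are members took different courses. NDC80 was at 28.3, 37.9 and 42.2 FPKM, NUF2 at 24.0, 30.4 and 24.7 FPKM and SPC25 at 14.3, 10.7 and 7.60 FPKM. The complex's other subunit, SPC24, measured in the wider lists below, was at 26.6, 66.4 and 64.1 FPKM. SPC25 was 1.88-fold higher in treated than in control cells (q = 0.939 in the authors' deposited table), from the second lowest control level of all members.

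**Figure D3:**
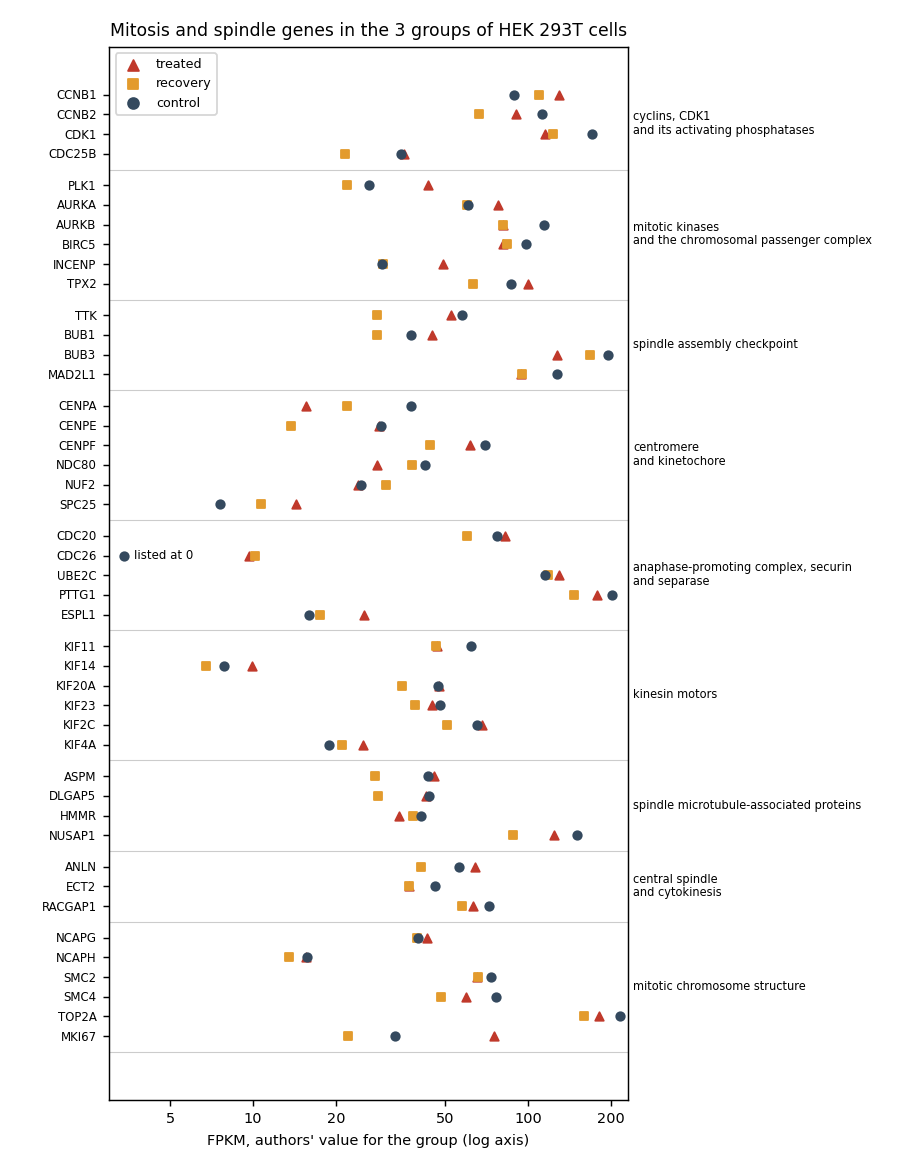
FPKM of the 44 genes on a log axis, grouped by role, with 1 authors' value for each group: treated (triangles), recovery (squares) and control (circles). CDC26, listed at 0 in control, is drawn at the left edge; in 36 genes the recovery square lies left of the control circle, and MKI67 has its treated triangle far to the right of both.

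In the group of the anaphase-promoting complex, securin and separase, levels other than those of CDC26 and ESPL1 were within 1.5-fold of control. CDC20, the complex's activator, was at 82.5, 59.7 and 77.0 FPKM in treated, recovery and control cells, and UBE2C, its ubiquitin-conjugating enzyme, at 129, 118 and 115 FPKM. Separase (ESPL1), which cuts cohesin, was at 25.2, 17.5 and 16.0 FPKM, 1.58-fold higher in treated than in control cells (q = 0.925 in the authors' deposited table). PTTG1, which holds separase inactive, was 1.14-fold lower in treated and 1.37-fold lower in recovery than in control.

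CDC26 (NM_139286, chromosome 9, 116029290 to 116037869, hg19) encodes a small subunit that steadies the complex's CDC16 subunit. It was at 9.63 FPKM in treated cells, 10.2 FPKM in recovery and 0 FPKM in control, and no fold is given against a value listed at 0. Being at 0 in control but at or above 1 FPKM in treated and recovery cells was seen for 275 of all 20220 entries (1.36%), against 27 entries at 0 in treated cells alone and 56 at 0 in recovery alone. Of the 275, 40 were called higher in both comparisons, CDC26 among them. Its q of 0.0147 is the lowest in the authors' deposited table, held in both comparisons by 30 entries. An exact 0 can be a failed estimate, and whether it is one here was not tested.

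The entries next to CDC26 showed no such step. PRPF4, a splicing factor gene read in the opposite direction whose entry begins 44 bases away, was at 38.7 FPKM in treated, 27.6 FPKM in recovery and 42.7 FPKM in control cells. SLC31A1, a copper transporter gene, was at 17.3, 11.5 and 16.9 FPKM; neither was called in the authors' deposited table. Of the 13 other subunits of the complex listed, 8 had an entry and 0 were called. ANAPC5 was at 82.7, 96.6 and 102 FPKM and ANAPC11, the RING subunit, at 74.5, 66.5 and 88.6 FPKM. ANAPC1, the largest scaffold, was at 9.45, 9.08 and 18.6 FPKM (q = 0.647 in treated and 0.590 in recovery, in the authors' deposited table). CDC16, the partner of CDC26, was at 18.0, 11.6 and 20.4 FPKM, and CDC27 at 36.9, 29.4 and 34.9 FPKM. ANAPC7 was at 36.7, 41.6 and 39.5 FPKM, the 1 subunit of the 8 above control in recovery. None of the 8 was at 0 in any group.

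**Figure D4:**
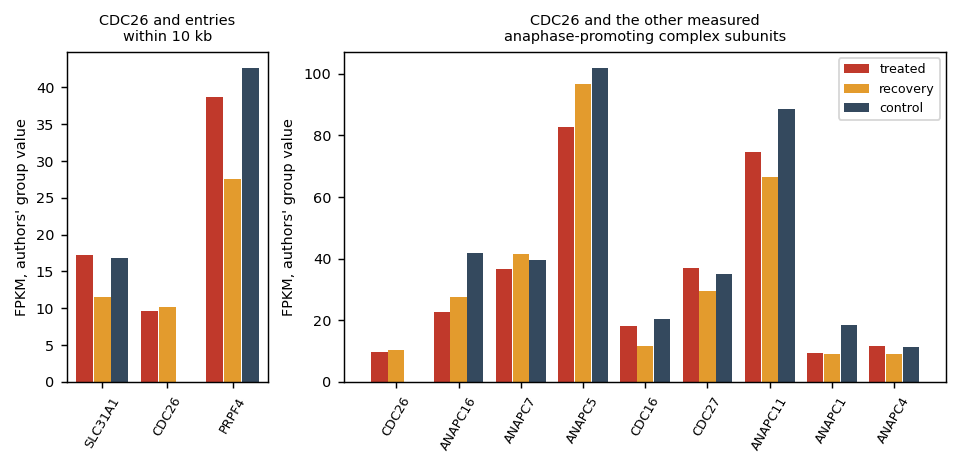
FPKM (1 authors' value per group, bars from 0) of CDC26 and the 2 entries within 10 kb of it (left) and of CDC26 and the 8 other measured subunits of the anaphase-promoting complex (right) in treated, recovery and control cells. CDC26 has no control bar, while every other gene shown has bars in all 3 groups.

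The 6 genes grouped here as kinesin motors stayed within 1.5-fold of control in both comparisons. CENPE, a kinesin placed with the kinetochore genes, did not, at 2.13-fold below control in recovery. KIF11, the motor that pushes the poles apart, was at 46.4, 46.3 and 62.1 FPKM in treated, recovery and control cells. KIF2C, which depolymerises wrongly attached microtubules, was at 68.0, 50.8 and 65.1 FPKM, and the cytokinesis kinesins KIF20A and KIF23 at 47.3, 34.7 and 47.0 FPKM and at 44.5, 38.8 and 47.9 FPKM. KIF4A, a chromosome-bound kinesin, was at 25.1, 21.1 and 18.9 FPKM, the 1 motor of the 6 above control in recovery.

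The spindle microtubule-binding proteins were the role group with the lowest median in recovery, -0.62 on the log2(FPKM + 1) scale against control, and all 4 were below control there. NUSAP1, which bundles spindle microtubules, was at 124, 87.8 and 150 FPKM in treated, recovery and control cells (1.71-fold lower in recovery; q = 0.822 in the authors' deposited table). ASPM, a spindle pole protein whose loss causes microcephaly, was at 45.4, 27.7 and 43.3 FPKM, and DLGAP5 at 42.4, 28.4 and 43.7 FPKM. HMMR, also at the spindle, was at 34.0, 38.2 and 40.8 FPKM. Except for HMMR, these genes had a lower value in recovery than in treated cells.

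The 3 measured cytokinesis genes were also below control in recovery. Anillin (ANLN), the scaffold of the contractile ring, was at 63.8, 40.7 and 55.8 FPKM in treated, recovery and control cells. ECT2, which activates RhoA at the division plane, was at 36.8, 36.8 and 45.9 FPKM and its partner RACGAP1 at 63.1, 57.3 and 71.7 FPKM.

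MKI67, which encodes the proliferation antigen Ki-67, a coat of mitotic chromosomes, had the largest ratio between its highest and lowest group among members above 0 in all groups. It was at 75.2 FPKM in treated cells, 22.2 FPKM in recovery and 32.8 FPKM in control. The treated level was 2.30-fold above control (q = 0.355, the lowest of the 43 uncalled members in the authors' deposited table) and 3.39-fold above recovery, and recovery was 1.48-fold below control. Of the condensin genes, SMC2 was at 65.3, 65.9 and 73.1 FPKM, SMC4 at 59.3, 48.3 and 76.1 FPKM, NCAPG at 42.8, 39.3 and 39.7 FPKM and NCAPH at 15.6, 13.5 and 15.7 FPKM. With TOP2A, all 6 genes of chromosome structure were below control in recovery, NCAPG and NCAPH by 1.01-fold and 1.16-fold.

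For 4 members without an entry of their own, the value of a neighbouring entry cannot be given to the member. The entry of BUB1B-PAK6, a readthrough of the checkpoint kinase gene BUB1B, spans 116479 bases and was at 43.9, 31.7 and 46.3 FPKM in treated, recovery and control cells. CCNA2 (cyclin A2) is annotated next to EXOSC9, whose entry spans 22617 bases where EXOSC9 has 15699, at 52.0, 34.9 and 70.3 FPKM. CDC25C is annotated next to FAM53C, whose entry spans 64465 bases where FAM53C has 12173, at 38.9, 40.5 and 31.9 FPKM. PRC1, the central spindle bundler, is annotated at the antisense gene PRC1-AS1, whose entry was at 0.666, 0 and 2.44 FPKM. These 4 entries were not called in the authors' deposited table. Entries of 5 members were likewise more than 1.5 times as long as the gene: PLK1, SMC4, NCAPG, KIF20A and ANLN, from 2.03 times (ANLN) to 6.23 times (NCAPG). They may include a neighbour, such as CDC23 beside KIF20A.

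The wider mitotic machinery, 10 lists of other genes, had 0 calls among 107 measured of 121 listed in either direction and in either comparison; the lowest q in the authors' deposited table was 0.324 in treated (CDKN1B) and 0.464 in recovery (CENPI). Over all entries with q under 1, 1.08% were called higher and 0.275% lower in treated cells, and 0.895% higher and 0.447% lower in recovery, so a count of 0 among 107 is near the background. Of the 107, 30 were higher and 77 lower in treated than in control cells, and 33 were higher and 74 lower in recovery, where of all entries above 5 FPKM 53.9% were lower in treated cells and 54.8% in recovery. Their median difference of log2(FPKM + 1) was -0.17 in treated and -0.23 in recovery. The inner centromere network and the CENP-A loaders, 15 measured, had a median of -0.66 in treated and -0.42 in recovery. In that list CENPP was at 6.45, 6.67 and 14.7 FPKM and OIP5, which helps to load CENPA, at 19.6, 11.2 and 31.8 FPKM in treated, recovery and control cells. CENPI stood apart at 17.0, 21.1 and 6.98 FPKM.

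Inhibitors of the cell cycle were mostly lower in treated cells and nearer to control in recovery. Of 7 CDK inhibitor and G2 arrest genes, 6 were lower in treated cells, with a median of -0.81, and 5 in recovery, with a median of -0.14. The shares over all entries above 5 FPKM were 53.9% lower in treated cells and 54.8% in recovery. CDKN1B (p27) was at 24.6 FPKM in treated, 46.4 FPKM in recovery and 57.3 FPKM in control cells (2.33-fold lower in treated). CDKN2C (p18) was at 26.4, 44.7 and 58.8 FPKM, CDKN1A (p21) at 61.7, 90.8 and 99.3 FPKM and RPRM, a G2 arrest gene, at 8.38, 20.8 and 27.1 FPKM. CDKN1C (p57) was the exception at 12.8, 15.3 and 4.40 FPKM. None of the 7 was called in the authors' deposited table.

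Among transcription factors of G2 and M phase genes, 13 of 15 had a treated value below control, with a median of -0.29. In recovery 10 of the 15 were below control, with a median of -0.18. Over all entries above 5 FPKM in all groups, 53.9% were lower in treated cells (median -0.05) and 54.8% in recovery (median -0.06). LIN52 and LIN9, subunits of the MuvB core that binds CHR elements, were at 2.72, 11.7 and 8 FPKM and at 15.9, 27.5 and 33.3 FPKM in treated, recovery and control cells. NFYA, a subunit of the CCAAT-binding NF-Y, was at 11.6, 9.04 and 5.46 FPKM, and TFDP2 at 11.5, 12.8 and 18.6 FPKM. MYBL2 (B-MYB) was at 126, 89.4 and 96.4 FPKM; MYBL2 and NFYA were the 2 of the 15 above control in treated cells.

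The other lists held genes on both sides of control. Of 14 other kinetochore and checkpoint genes, 10 were lower and 4 higher in treated cells, where 53.9% of all entries above 5 FPKM were lower. The lowest change was that of SPC24, the partner of SPC25 (26.6, 66.4 and 64.1 FPKM in treated, recovery and control), and the highest that of ZW10 (22.5, 23.7 and 15.4 FPKM). SKA2 had the lowest recovery change (43.0, 37.4 and 64.4 FPKM). SPC24 and SPC25 stood on opposite sides of control in treated cells. In the list of CDK1 control, ENSA, which restrains the phosphatase that opposes CDK1, was at 111, 160 and 211 FPKM, CDC25A at 33.5, 23.2 and 17.6 FPKM, CKS1B at 35.2, 40.8 and 22.6 FPKM and CCNB3 at 3.67, 2.84 and 4.82 FPKM. Among regulators of the anaphase-promoting complex, the activator FZR1 was at 23.0, 17.1 and 9.76 FPKM and the inhibitor FBXO5 at 39.2, 44.5 and 61.3 FPKM. FZR1 was above control and FBXO5 below it in both comparisons.

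Of the other passenger, cohesin and condensin genes, 7 of 15 were higher and 8 lower in each comparison, near the shares over all entries above 5 FPKM (53.9% and 54.8% lower). They ranged in treated cells from SGO2, which protects centromeric cohesin (12.8, 10.6 and 15.5 FPKM in treated, recovery and control), to SMC1A (67.9, 44.2 and 43.6 FPKM), and CDCA8 had the highest recovery change (28.4, 24.3 and 18.1 FPKM). Among other spindle proteins, KIF20B was at 26.4, 25.7 and 41.7 FPKM, KNSTRN at 40.0, 29.4 and 57.3 FPKM, TACC3 at 22.5, 13 and 13.5 FPKM and KIF18B at 15.5, 12.6 and 10.7 FPKM. KIF20B and KNSTRN were below control in both comparisons. Among centrosome genes, NEDD1 was at 21.8, 23.6 and 38.9 FPKM, CEP152 at 8.45, 4.86 and 10.8 FPKM and TUBG1 (gamma-tubulin) at 44.7, 27.1 and 25 FPKM. TUBG1 was the gene of that list farthest above control in each comparison.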

How the data were processed

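RNA from 5 libraries was grouped by sample title into treated (2), recovery (1) and control (2). The authors deposited FPKM values, 1 per RefSeq entry and group, and a q-value (adjusted p-value) for treated and for recovery against control, as the headers name them. The deposited table has other columns with marks by the authors: yes or no calls and 2 marks headed SOM. Cufflinks and Cuffdiff and the builds hg19 and mm9 are named in the submitters' processing notes; hg19 was taken for these human tables. For aligner, versions, annotation and test settings: not given in the sources used here. Nothing says that libraries of a group came from separate cultures, so their spread may be technical.

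Of 20221 RefSeq entries, 1 with shifted cells was left out. Symbols came from NCBI's RefSeq table, which held 19665 of the 20220 identifiers; files' starts count from 0 and are printed 1-based. No model was fitted, because no library values were given: calls are the authors' at q under 0.05, with the direction from FPKM. Differences are of log2(FPKM + 1), which understates changes of low genes; list medians use entries with a mean of 0.5 FPKM or more. Other scalings were median of ratios and quantile scaling. Fragment totals are unknown; relative depth is the commonest ratio of group values (80 of 12366 entries for treated, 98 of 12095 for recovery). Promoters are RefSeq's (GRCh38.p14). The number of value columns of no group was 0. Of 21625 lncRNA entries read from the second table, also in FPKM, 0 overlapped a member, and the share over all entries was not counted. Named genes are all members, called genes and each list's extremes; CDKN1A, CDKN1B, LIN9, MYBL2, ANAPC5, ANAPC11 and CDC16 were named after their values were seen. A marker gene of the blood list is not reported here. Members and lists were chosen with earlier results of these data known. Scripts (Python 3.11.15, pandas 2.3.3, NumPy 2.4.6) were tested on simulated data.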

Additional observations from a re-analysis of the deposited data

How the results depend on the processing

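No paired analysis was possible because the deposited columns hold 1 value per group, and for the same reason no replicate could be left out. In both comparisons with control the number of called genes stayed at 1 at q under 0.10 and was 0 at q under 0.01 and 0 when only entries above 0 in both groups were counted, since the 1 call, CDC26, has q = 0.0147 and a control listed at 0. The median difference in treated against control, -0.03, was 0.01 with median of ratios scaling, 0.02 with quantile scaling, -0.04 over genes above 0 in all groups and -0.04 without the 5 entries longer than their gene, an alternative chosen after seeing the data. In recovery against control, -0.36 became -0.32, -0.34 and, without those 5 entries, -0.35 in the same order of settings, and was unchanged over genes above 0. In recovery against treated, -0.28 became -0.27 with quantile scaling, -0.29 over genes above 0 and -0.25 without the 5 entries. The pseudocount of 0.1, no filter and a mean of 5 FPKM changed none of the 3 medians at 2 decimals. CHR letters were in 30 of the 41 promoters with TTTGAA alone (73.2%, against 15.8% of all). With 1 value per group, differences below the unknown spread between libraries cannot be told from 0.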

Other observations

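The authors' deposited table carries 2 further marks whose making is not described in the sources used here. The mark headed expression (High_expression) was on 30 of the 44 mitotic genes (68.2%), against 29.8% of the 7392 entries above 5 FPKM in all groups and 12.8% of all entries. The mark headed DNA methylation (Affected) was on 5 of the 44 (11.4%), namely AURKA, TTK, SPC25, ESPL1 and HMMR, against 7.97% of entries above 5 FPKM and 14.1% of all entries. CDC26 carries neither mark.

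Both CHR letters and CCAAT were found for 28 of the 41 genes (68.3%), against 12.5% of all protein-coding genes and 11.6% of those above 5 FPKM in all groups. These shares count matches over all windows of a gene, so the motifs need not share a window. In CDC25B they lay in windows of different starts. Of the 44 entries, 8 had a lncRNA entry within 10 kb. The share over all entries was not counted, so this number cannot be called high or low.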
